A study of Homo sapiens with 24 samples.

Results

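Baseline expression of SW1736, a thyroid cancer cell line, was compared with that of SKMEL28, a melanoma cell line, before either received drug. The comparison took the arrays whose titles carry SW1736 or SKMEL28 and time 0 h, which were 6 of the 24 arrays in the series, 3 for SW1736 and 3 for SKMEL28, and every gene with a measured probe. Both lines carry a BRAF mutation, so neither is a normal control for the other, and each lineage is represented by a single established line. All 24 arrays came from cells grown in RPMI medium with serum. The other 18 arrays held the same lines after 1, 6 or 48 h of 2 µM vemurafenib, a drug that blocks mutant BRAF, and were used to ask whether the line difference was present in arrays other than the untreated ones. The design text of the series spells the thyroid line SW1726, whereas the titles and labels spell it SW1736, which is the name used here.

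Melanocytes arise from the neural crest, and their pigment programme is run by the transcription factor MITF together with SOX10 and PAX3, which switch on the enzymes and structural proteins of the melanosome. Thyroid follicular cells are epithelial cells whose identity rests on the combination of PAX8, NKX2-1, FOXE1 and HHEX, which drives thyroglobulin, the iodide transporter and the receptor for thyroid-stimulating hormone. Thyroid cancers can lose these functions, and mutant BRAF keeps the ERK kinases active in both kinds of tumour.

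Illumina bead arrays were used, on which each probe gives a fluorescence signal and a detection p-value. Between 18371 and 18917 probes were detected (p under 0.05) on the SW1736 arrays, and between 19605 and 19739 on the SKMEL28 arrays, of 47231 probes. Correlations across probes were 0.981 to 0.982 among SW1736 arrays, 0.991 to 0.992 among SKMEL28 arrays and 0.825 to 0.833 between the lines, and the median SD of a gene was 0.234 in SW1736 and 0.134 in SKMEL28. No label says that the 3 replicates of a line were separate cultures, so the p-values reflect the spread between arrays of a group, pooled over the 24 arrays of the fit, and that spread may be technical. Every difference below is SW1736 minus SKMEL28 on the log2 scale of normalised signal, between means of 3 arrays a line. Its SE comes from limma's fit of all 24 arrays, and its p is adjusted over 13699 genes. A gene whose probe was detected on no array of 1 line has only a bound, written "at least N-fold". In extracts of whole cultures, fewer cells of a type and less RNA per cell cannot be told apart. Signals are not molecule counts, and the precision of a difference depends on how many arrays were run and on the spread of the gene between them.

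The untreated lines differed in about as many genes in 1 direction as in the other. By adjusted p under 0.05 alone, 6883 of 13699 genes (50.2%) differed between the untreated lines, 3493 higher in SW1736 (25.5%) and 3390 lower (24.7%). With a difference of at least 2-fold required as well, 3499 genes were called (25.5%), 1836 higher (13.4%) and 1663 lower (12.1%). Without background correction, and with the authors' deposited values, the 2-fold rule called 2062 and 2051 genes, and the cause was not tested. At 4-fold there were 643 higher and 624 lower genes, at 16-fold 168 and 161, and at 32-fold 83 and 76. Among the called genes, 456 (3.33% of all tested) were detected on 3 of 3 SW1736 arrays and by no probe on SKMEL28 arrays, and 580 (4.23%) the other way round. For 7979 genes (58.2%) the 3 arrays of 1 line did not overlap those of the other. These shares are the background against which the gene groups below are read.

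**Figure D1:**
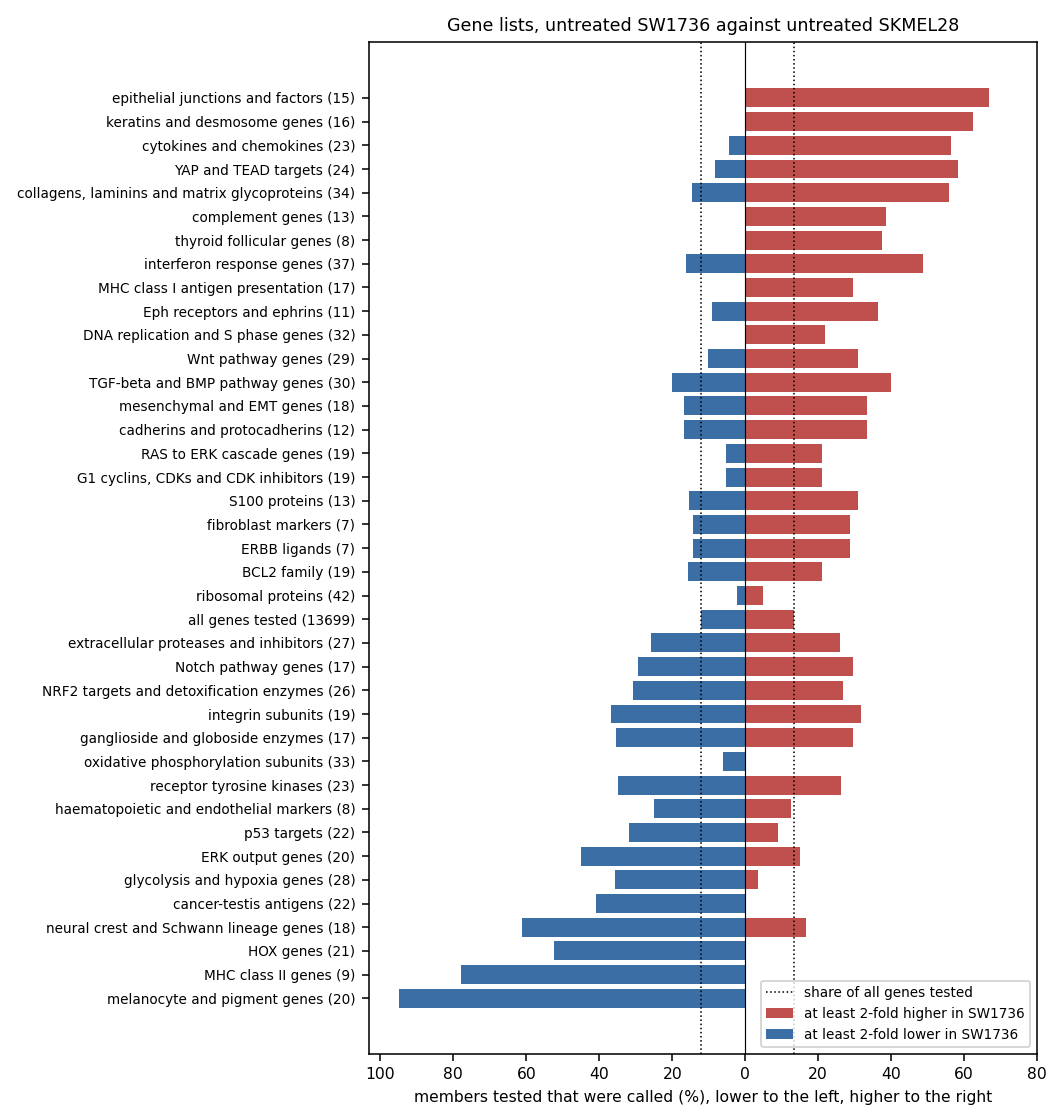
Share of the tested members of each of 38 gene lists, and of all genes tested, called at least 2-fold higher (red, to the right) or lower (blue, to the left) in untreated SW1736 than in untreated SKMEL28; numbers in brackets are members tested and dotted lines mark the shares over all genes (13.4% higher and 12.1% lower). Pigment, MHC class II, HOX and neural crest lists extend to the left, and epithelial, cytokine, matrix and YAP lists to the right.

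The pigment programme was lower in SW1736 throughout its measured members. All 20 melanocyte and pigment genes that were tested, of 21 listed, were lower in SW1736, 19 of them (95.0%) at least 2-fold against 12.1% of all genes tested, and their median difference was -4.10 (-2.72 with the authors' values) beside 0.01 over all genes. None was higher by limma's test, adjusted or at an unadjusted p under 0.05. MITF, the master transcription factor of melanocytes, read 6.19, 6.16 and 6.25 on the SW1736 arrays and 10.88, 10.74 and 10.77 on the SKMEL28 arrays. Its difference was -4.60 ± 0.21 (adjusted p 4.89e-15), and it was still detected on 3 of 3 SW1736 arrays. TYR, which makes tyrosinase, the first enzyme of melanin synthesis, read 4.58, 4.70 and 4.57 in SW1736, detected on no array, against 11.69, 11.48 and 11.62 in SKMEL28, so it was at least 76.4-fold lower (adjusted p 1.85e-22). PMEL, whose product forms the fibrils inside melanosomes, read 5.38, 5.35 and 5.39 in SW1736 and 14.34, 14.36 and 14.35 in SKMEL28, a difference of -8.98 ± 0.16 (adjusted p 1.85e-22). The arrays of the lines lay far apart for each of these genes, and PMEL sat at the edge of detection in SW1736, on 2 of 3 arrays.

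Other melanosomal genes behaved the same way to differing degrees. MLANA, which encodes the melanoma antigen MART-1, was at least 118-fold lower and GPNMB, a melanosomal glycoprotein, at least 134-fold lower, with no probe of either gene detected in SW1736. OCA2, a melanosomal ion transport protein, was at least 31.9-fold lower and TYRP1, the tyrosinase-related enzyme, at least 18.1-fold lower. SLC45A2, a membrane transporter of the melanosome, differed by -5.80 ± 0.23 and was detected on 1 of 3 SW1736 arrays. RAB27A and MC1R were detected on every array of both lines. RAB27A, which tethers melanosomes and also other secretory vesicles to the actin cytoskeleton, read 7.68, 8.21 and 7.65 in SW1736 and 9.41, 9.40 and 9.42 in SKMEL28 (-1.56 ± 0.25, adjusted p 1.04e-05). MC1R, the receptor for melanocyte-stimulating hormone, read 7.12, 7.48 and 7.46 in SW1736 and 10.69, 10.61 and 10.55 in SKMEL28 (-3.26 ± 0.20, adjusted p 1.51e-12). TRPM1, a cation channel of melanocytes, was detected on 0 of 3 SW1736 and 2 of 3 SKMEL28 arrays and was at least 1.14-fold lower (adjusted p 0.00758).

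**Figure D2:**
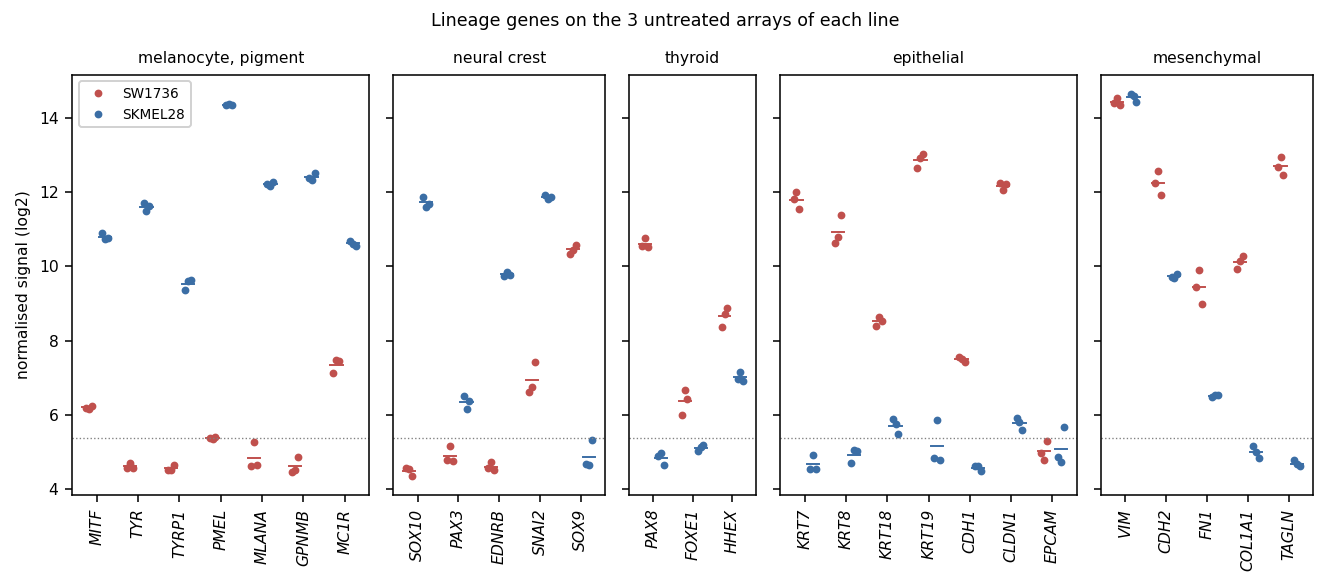
Normalised log2 signal of 27 lineage genes on each untreated array, SW1736 in red at the left of each pair and SKMEL28 in blue, with a short bar at the mean of 3 arrays; the dotted line marks 5.37, the highest of the 6 arrays' lowest detected signals. Pigment genes and SOX10 stand high in SKMEL28, PAX8, keratins and CLDN1 in SW1736, and VIM lies at the top of the range in both lines.

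The promoters of pigment genes were searched for the M-box core TCATGTG, which reads CACATGA on the other strand and is known to be bound by MITF. The core contains an E-box of the form CATGTG. RefSeq promoters on build GRCh38.p14 were available for 17 of the 20 genes, and 6 of them (35.3%) held the core on either strand within 250 bases before a start, against 247 of the 10857 tested genes with a promoter (2.28%). Among genes at least 2-fold lower in SW1736 the share was 3.49%, and among those at least 2-fold higher 2.17%. These 6 genes were all called lower in SW1736, as was the whole list. The list gathers known genes of a programme run by MITF, and the core was searched because MITF binds it. Its higher share may come from that choice and is no independent evidence about these lines. The stretches are shown because they hold the searched core, each read 5′ to 3′ on the strand of its gene, with the core in capitals and up to 24 bases on either side within the 250 bases before the start.
TYR, chr11:89177746-89177800, plus strand: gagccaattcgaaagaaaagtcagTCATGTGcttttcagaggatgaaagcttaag
TYRP1, chr9:12693216-12693270, plus strand: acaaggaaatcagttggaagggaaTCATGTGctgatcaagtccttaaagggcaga
GPNMB, chr7:23246628-23246743, plus strand: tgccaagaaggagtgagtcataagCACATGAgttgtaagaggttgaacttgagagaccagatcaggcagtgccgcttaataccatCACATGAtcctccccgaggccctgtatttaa
GPR143, chrX:9765850-9765932, minus strand: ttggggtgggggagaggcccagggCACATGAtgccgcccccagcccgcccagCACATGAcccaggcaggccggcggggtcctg
SLC24A5, chr15:48120951-48120989, plus strand: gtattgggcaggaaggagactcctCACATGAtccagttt
BCL2A1, chr15:79971197-79971246, minus strand: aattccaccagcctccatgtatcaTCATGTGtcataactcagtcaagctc
The core ended 98 bases before the start of TYR and 138 before that of TYRP1, and both GPNMB and GPR143 held it at 2 places. GPR143, a receptor on melanosomes, differed by -4.18 ± 0.21, and SLC24A5, a melanosomal ion exchanger, by -4.02 ± 0.16, each detected on 1 of 3 SW1736 arrays. BCL2A1, an anti-apoptotic member of the BCL2 family, was at least 6.83-fold lower in SW1736. No binding was measured here, and a match of letters is not a bound site.

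Neural crest factors followed the pigment genes, with exceptions. Of 18 neural crest and Schwann lineage genes tested, 13 were lower in SW1736 and 3 higher (11 and 3 at least 2-fold), with a median of -1.22, or -0.72 when bounds replaced undetected members and -0.65 with the authors' values. SOX10, the neural crest factor that acts with MITF, read 4.58, 4.53 and 4.36 in SW1736, undetected, against 11.88, 11.60 and 11.67 in SKMEL28, and was at least 82.9-fold lower (adjusted p 2.32e-21). PAX3, another regulator of MITF, was at least 2.00-fold lower, and EDNRB, the endothelin receptor of migrating melanoblasts, at least 21.6-fold lower. SNAI2, a neural crest repressor of epithelial genes, was detected in both lines and differed by -4.94 ± 0.24 (adjusted p 1.22e-14). The 3 genes that went the other way were SOX9, NES and L1CAM. SOX9, which acts in cartilage and in several epithelia besides the neural crest, read 10.33, 10.45 and 10.58 in SW1736 against 4.67, 4.65 and 5.31 in SKMEL28 (5.58 ± 0.20, adjusted p 3.4e-17), where 1 of 3 arrays was above the detection threshold. NES, the intermediate filament nestin, was at least 3.91-fold higher, and the adhesion molecule L1CAM differed by 2.71 ± 0.20. S100B, a clinical marker of melanoma, was dim even in SKMEL28, at 5.90, 5.90 and 5.36, and undetected in SW1736 (at least 1.30-fold lower).

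Thyroid identity was partial in the thyroid line. Of its 4 lineage factors, 3 were higher in SW1736 and the fourth, NKX2-1, was detected by neither of its probes on any untreated array of either line. PAX8 read 10.53, 10.77 and 10.52 in SW1736 and 4.89, 4.97 and 4.66, undetected, in SKMEL28, at least 41.1-fold higher (adjusted p 8.69e-18). FOXE1 read 6.00, 6.67 and 6.42 in SW1736 against 5.04, 5.13 and 5.18 in SKMEL28, at least 2.17-fold higher, and HHEX read 8.36, 8.72 and 8.88 in SW1736 against 6.98, 7.17 and 6.92 in SKMEL28 (1.63 ± 0.20, adjusted p 1.97e-07). The 3 factors did not overlap between the lines, which was also true of 58.2% of all genes tested. HHEX was clearly present in SKMEL28 as well. Genes of thyroid function gave no such signal. TG, which encodes thyroglobulin, TSHR, the hormone receptor, SLC5A5, the iodide transporter, and DUOX1, DUOX2 and IYD, which handle peroxide and iodide, did not pass the detection filter and were detected on no untreated array of either line. SLC26A4, the iodide exchanger pendrin, differed by -0.44 ± 0.20 (adjusted p 0.0723) and DIO2, a deiodinase, by 0.07 ± 0.16 (adjusted p 0.747). Of 20 thyroid genes listed, 16 had a probe and 8 were tested, 3 of them higher and none lower by limma's test (1 lower at an unadjusted p under 0.05). By its defining markers SW1736 thus had PAX8, FOXE1 and HHEX signal, and thyroglobulin, the hormone receptor and the iodide transporter were below detection.

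Markers of other cell types were checked. Of 19 blood and endothelial markers with a probe, 11 did not pass the detection filter, among them PTPRC, CD3E, PECAM1, CDH5 and VWF. Of the 8 tested 1 was higher in SW1736 and 2 lower, beside 25.5% and 24.7% of all genes tested. CD68, a lysosomal protein used as a macrophage marker and made by other cells too, was detected on every array of both lines and was lower in SW1736 (-3.77 ± 0.16), and CD14 was higher (1.78 ± 0.26). CD2, a T cell marker, read 5.47, 4.90 and 4.89 in SW1736, detected on 1 of 3 arrays, and 6.36, 7.01 and 7.08 in SKMEL28 (-1.73 ± 0.27, adjusted p 7.93e-06). Among 10 fibroblast markers, PDGFRA, THY1 and FAP did not pass the filter, COL1A1 was at least 29.2-fold higher in SW1736, and LUM, a matrix proteoglycan, at least 9.32-fold lower.

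Epithelial structure separated the lines in the opposite direction to pigment. Of 16 keratin and desmosome genes tested, 12 were higher in SW1736 and none lower, also at an unadjusted p under 0.05. Of the 12, 10 were at least 2-fold higher, and the median of the list was 2.50, or 2.02 when bounds replaced undetected members and 0.75 with no filter. KRT7, a keratin of simple epithelia, read 11.81, 11.99 and 11.55 in SW1736 and 4.54, 4.93 and 4.53, undetected, in SKMEL28, at least 92.8-fold higher (adjusted p 1.2e-20). KRT8 was at least 51.2-fold higher, and its filament partner KRT18, detected in both lines, differed by 2.81 ± 0.24. KRT19 read 12.64, 12.91 and 13.02 in SW1736 against 4.85, 5.87 and 4.77 in SKMEL28 (7.69 ± 0.23, adjusted p 1.64e-18), with detection on 1 of 3 SKMEL28 arrays. DSP, the desmosomal plaque protein desmoplakin, differed by 3.95 ± 0.23 with detection on 1 of 3 SKMEL28 arrays, whereas DSG2, a desmosomal cadherin, read 10.77, 11.07 and 10.60 in SW1736 and 10.79, 10.90 and 10.96 in SKMEL28 (-0.07 ± 0.14, adjusted p 0.74). KRT5, KRT13 and KRT14, keratins of stratified epithelia, did not pass the filter.

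Of 22 genes of epithelial junctions and their regulators with a probe, 15 passed the filter and were tested. Among these 15, 11 were higher in SW1736, 10 of them at least 2-fold, and none lower (1 at an unadjusted p under 0.05). Their median was 1.74, or 0.53 with no filter. CLDN1, a tight junction protein, read 12.23, 12.06 and 12.20 in SW1736 against 5.92, 5.80 and 5.59 in SKMEL28 (6.39 ± 0.19, adjusted p 1.84e-18). CDH1, which encodes E-cadherin, read 7.57, 7.51 and 7.42 in SW1736 and was undetected in SKMEL28 at 4.62, 4.61 and 4.50, at least 4.77-fold higher (adjusted p 2.83e-15). OVOL2, a factor that maintains epithelial fate, was at least 9.62-fold higher and SFN, the epithelial 14-3-3 protein, at least 30.4-fold higher. Other epithelial markers did not separate the lines. EPCAM read 4.98, 4.79 and 5.30 in SW1736 and 4.87, 4.72 and 5.67 in SKMEL28, near the detection limit (-0.06 ± 0.25, adjusted p 0.863), and the splicing regulator ESRP1 was dim in both (-0.06 ± 0.25, adjusted p 0.872). The epithelial genes GRHL2, ESRP2, OVOL1, EHF, OCLN, CLDN3 and ST14 did not pass the filter and were detected on no untreated array of either line. The epithelial signal of SW1736 was thus partial.

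Mesenchymal genes were not confined to 1 line. Of 18 mesenchymal and EMT genes tested, 8 were higher in SW1736 and 3 lower, with a median of 0.20. VIM, the mesenchymal filament vimentin, read 14.40, 14.52 and 14.34 in SW1736 and 14.64, 14.57 and 14.43 in SKMEL28 (-0.13 ± 0.14, adjusted p 0.485), so the arrays overlapped near the top of the range. CDH2, which encodes N-cadherin, was higher in SW1736 at 12.23, 12.56 and 11.93, against 9.70, 9.68 and 9.80 in SKMEL28 (2.51 ± 0.16, adjusted p 5.1e-12). The line with detectable E-cadherin thus also had the higher N-cadherin signal. TAGLN, an actin-binding protein of contractile cells, was at least 175-fold higher in SW1736, ACTA2, smooth muscle actin, at least 18.2-fold higher, and TGFBI, a matrix protein induced by TGF-beta, differed by 7.20 ± 0.15 with detection on 1 of 3 SKMEL28 arrays. In contrast, SNAI2 and the repressors TWIST1 (at least 8.58-fold lower) and ZEB2 (at least 11.9-fold lower) were the 3 members lower in SW1736.

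Matrix genes made the thyroid line stand out. Of 34 collagens, laminins and matrix glycoproteins tested, 22 were higher in SW1736 and 6 lower (19 and 5 at least 2-fold), with a median of 2.53, or 2.11 with bounds and 1.24 with the authors' values. THBS1, a matricellular glycoprotein, read 12.59, 12.31 and 12.56 in SW1736 and 5.02, 4.76 and 4.62, undetected, in SKMEL28, at least 151-fold higher (adjusted p 1e-20). COL5A1, a fibrillar collagen chain, was at least 107-fold higher and COL4A1, a basement membrane chain, at least 23.4-fold higher. The chains of fibrillar collagen I moved together, since COL1A2 differed by 5.84 ± 0.37, detected on 1 of 3 SKMEL28 arrays, beside the bound given for COL1A1. The matrix genes lower in SW1736 included SPP1, which encodes osteopontin, at least 63.8-fold lower, the laminin chain LAMA1, at least 25.6-fold lower, and tenascin TNC (-2.16 ± 0.14). SPARC, a collagen-binding glycoprotein, did not pass the test (0.19 ± 0.15, adjusted p 0.332).

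Integrins, the receptors for this matrix, were split. Of 19 subunits tested, 7 were higher and 9 lower in SW1736 (median 0.07). ITGA3, a laminin receptor chain, read 11.68, 10.98 and 11.51 in SW1736 and 8.77, 8.79 and 8.62 in SKMEL28 (2.66 ± 0.18, adjusted p 8.64e-12), and ITGA5, the fibronectin receptor chain, differed by 2.35 ± 0.20. ITGB3, whose product pairs with the alpha v chain in melanoma, read 6.11, 5.52 and 6.12 in SW1736 and 8.52, 8.78 and 8.82 in SKMEL28 (-2.79 ± 0.18, adjusted p 2.78e-12), and ITGA9 was at least 5.46-fold lower. Among 27 extracellular proteases and inhibitors 10 were higher and 10 lower, beside 25.5% and 24.7% of all genes tested. PLAU, which encodes urokinase, was higher in SW1736 (5.92 ± 0.17, detected on 1 of 3 SKMEL28 arrays), and A2M, a broad protease inhibitor, was at least 28.4-fold lower.

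The receptors through which each line could receive growth signals differed one by one. The series concerns transcription of ERBB3, which encodes HER3, a receptor that signals with ERBB2 after binding neuregulin, so the untreated levels of this family were read first. ERBB3 read 8.50, 8.51 and 7.79 in SW1736 and 9.86, 9.70 and 9.90 in SKMEL28, lower in the thyroid line by -1.56 ± 0.18 (adjusted p 1.68e-07), with no overlap. A second ERBB3 probe gave -1.92, and another was detected on no SW1736 array and on 3 of 3 SKMEL28 arrays. ERBB2 was slightly higher, at 8.91, 9.17 and 8.89 in SW1736 against 8.24, 8.03 and 8.64 in SKMEL28 (0.69 ± 0.17, adjusted p 0.00151). EGFR read 8.65, 8.64 and 8.90 in SW1736 and 5.04, 4.86 and 4.62, undetected, in SKMEL28, at least 11.2-fold higher (adjusted p 2.72e-14). ERBB4 was not detected on any untreated array. The family was therefore ERBB2 and ERBB3 in SKMEL28, and EGFR, ERBB2 and ERBB3 in SW1736, as far as detection shows.

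Ligands of the family were compared by the same measure. NRG1, the neuregulin that binds HER3, read 8.53, 8.50 and 8.42 in SW1736 and 5.91, 5.09 and 5.16 in SKMEL28, where 1 of 3 arrays was above the detection threshold (3.10 ± 0.26, adjusted p 5.31e-10). A further NRG1 probe, detected on 3 of 3 SW1736 arrays and on no SKMEL28 array, was brighter in SW1736 (adjusted p 3.39e-13 over probes). TGFA, a ligand of EGFR, read 8.56, 8.45 and 8.58 in SW1736 and 5.48, 5.78 and 5.81 in SKMEL28 (2.84 ± 0.18, adjusted p 3.78e-12). HBEGF, another EGFR ligand, went the other way at 6.76, 6.12 and 6.53 in SW1736 against 7.87, 7.57 and 7.75 in SKMEL28 (-1.26 ± 0.25, adjusted p 0.00018). EREG and EGF were undetected in both lines. SW1736 thus had the lower ERBB3 and the higher NRG1 signal before drug.

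Over all 23 receptor tyrosine kinases tested, 9 were higher and 9 lower (6 and 8 at least 2-fold). The counts in this paragraph stand beside 25.5% higher and 24.7% lower over all genes tested. AXL, a receptor of the TAM family, read 11.22, 11.25 and 11.36 in SW1736 and was undetected in SKMEL28, where the 3 arrays lay between 4.73 and 5.04, at least 65.3-fold higher (adjusted p 2.28e-16). Its ligand GAS6 was also higher, with 11.64, 11.64 and 11.61 in SW1736 and 5.87, 5.70 and 5.48 in SKMEL28 (5.95 ± 0.25, adjusted p 1.4e-15), whereas MERTK, a receptor of the same family, was at least 2.21-fold lower. MET, the receptor for hepatocyte growth factor, differed by 2.86 ± 0.14 and DDR1, a collagen receptor, by 3.55 ± 0.19. DDR2, the related collagen receptor, was at least 3.95-fold lower in SW1736 and IGF1R at least 3.04-fold lower. Of 11 Eph receptors and ephrins, 6 were higher and 3 lower, led by EFNB2 (at least 17.2-fold higher), EFNA1 (4.04 ± 0.13) and EPHA2 (at least 7.31-fold higher).

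**Figure D3:**
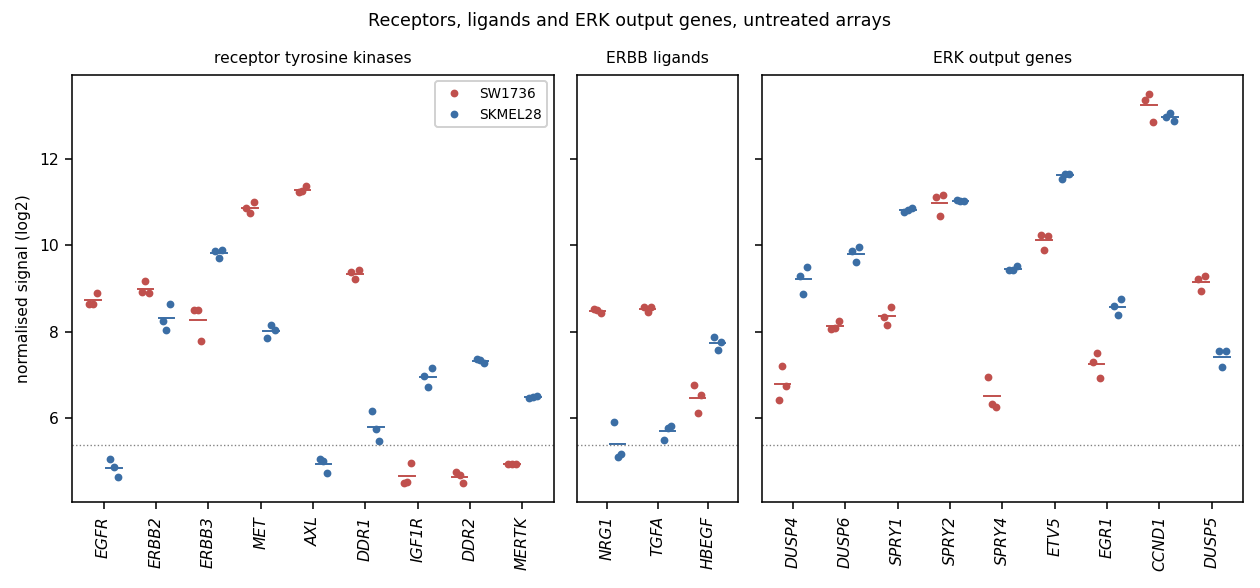
Normalised log2 signal of 9 receptor tyrosine kinases, 3 ERBB ligands and 9 ERK output genes on each untreated array, SW1736 in red at the left of each pair and SKMEL28 in blue, with a bar at the mean of 3 arrays and a dotted line at 5.37, the highest of the arrays' lowest detected signals. EGFR and AXL lie below that line in SKMEL28, IGF1R, DDR2 and MERTK below it in SW1736, and the SPRY2 and CCND1 arrays of the lines overlap.

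Genes downstream of ERK were mostly lower in the thyroid line. Of 20 ERK output genes tested, 11 were lower in SW1736 and 3 higher (9 and 3 at least 2-fold), with a median of -0.63. DUSP6, a phosphatase that switches off ERK and is itself induced by it, read 8.05, 8.08 and 8.24 in SW1736 and 9.86, 9.61 and 9.95 in SKMEL28 (-1.68 ± 0.21, adjusted p 3.12e-07). SPRY4, a Sprouty inhibitor of receptor signalling, read 6.95, 6.32 and 6.25 in SW1736 against 9.42, 9.43 and 9.53 in SKMEL28 (-2.95 ± 0.22, adjusted p 4.17e-11). The related feedback genes SPRY1 (-2.46 ± 0.18), DUSP4 (-2.43 ± 0.36) and SPRED2 (-1.85 ± 0.14) were lower too, as were the ETS factor ETV5 (-1.51 ± 0.14) and the early response factor EGR1 (-1.33 ± 0.27). SPRY2, by contrast, read 11.11, 10.68 and 11.15 in SW1736 and 11.04, 11.01 and 11.01 in SKMEL28 (-0.04 ± 0.16, adjusted p 0.852), and the cyclin gene CCND1 differed by 0.27 ± 0.16 (adjusted p 0.175). Without SW1736 replicate 3 the CCND1 difference was 0.47 with adjusted p 0.0173. Higher in SW1736 were EPHA2, the phosphatase DUSP5 (1.73 ± 0.20) and IER3 (1.10 ± 0.17). MYC, a growth regulator, was lower by -0.69 ± 0.15 (adjusted p 0.000546).

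Of 19 genes between RAS and ERK, 5 were higher and 4 lower, near the share of all genes called, with a median of -0.08. RRAS, a relative of the RAS oncogenes, read 10.83, 11.03 and 10.83 in SW1736 and 7.10, 7.17 and 7.19 in SKMEL28 (3.74 ± 0.18, adjusted p 1.3e-14), MRAS was at least 3.12-fold lower, and ARAF differed by 1.25 ± 0.25. CTBP1, a transcriptional corepressor, was higher by 0.60 ± 0.12 (adjusted p 0.000252), but 2 other CTBP1 probes detected on all 6 arrays gave 0.46 and 0.20 and did not pass. CTBP2, its relative, did not pass (-0.31 ± 0.20, adjusted p 0.22).

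Antigen presentation divided by class. Of 14 MHC class II genes with a probe, 9 passed the filter and were tested. Among these 9, 7 were lower in SW1736, each at least 2-fold, and none higher, also at an unadjusted p under 0.05. Their median was -2.94, or -1.33 with no filter. HLA-DPA1 read 4.58, 4.53 and 4.39 in SW1736, undetected, and 10.06, 10.09 and 10.10 in SKMEL28, at least 26.8-fold lower (adjusted p 1.29e-20). CD74, the invariant chain that guides class II molecules, read 7.67, 7.04 and 6.59 in SW1736 against 9.95, 10.11 and 10.08 in SKMEL28 (-2.94 ± 0.20, adjusted p 1.15e-11). HLA-DRB4 was among the 7 by its brightest probe (-2.45), but the probe of it detected on more untreated arrays gave 0.095. A further HLA-DRB4 probe, detected on no SW1736 array and on 3 of 3 SKMEL28 arrays, gave a signal difference of -2.40. CIITA, the class II transactivator, was not detected on any untreated array. HLA-DRB1, HLA-DRB5, HLA-DPB1 and HLA-DOA did not pass the filter either and were detected on no untreated array of SW1736 or SKMEL28. In class I presentation, 9 of 17 genes were higher in SW1736 and 4 lower. HLA-B read 11.43, 11.13 and 11.02 in SW1736 and 7.78, 7.41 and 7.69 in SKMEL28 (3.57 ± 0.17, adjusted p 1.3e-14), the peptide transporter TAP1 differed by 1.46 ± 0.13 and its partner tapasin, TAPBP, by 1.76 ± 0.16. HLA-F, HLA-E, HLA-G and the trimming peptidase ERAP2 were the 4 lower members, but another ERAP2 probe detected on all 6 arrays gave 1.61, higher in SW1736. HLA genes are near-identical copies of each other and differ between people, so a probe may read more than 1 of them and a line's own alleles, and these values are uncertain for that reason.

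Interferon response genes were mostly higher in the thyroid line. Of 37 tested, 23 were higher and 7 lower (18 and 6 at least 2-fold), with a median of 0.90. IFIT1, an antiviral RNA-binding protein, read 10.46, 10.49 and 11.06 in SW1736 and 6.37, 6.99 and 6.11 in SKMEL28 (4.18 ± 0.22, adjusted p 1.02e-13). MX1, an antiviral GTPase, read 11.60, 11.77 and 11.58 in SW1736 against 8.29, 8.28 and 7.94 in SKMEL28 (3.48 ± 0.16, adjusted p 8.67e-15), and the interferon regulatory factor IRF1 differed by 3.83 ± 0.23. The members that were lower in SW1736 included ISG20, an exonuclease (-2.86 ± 0.17), PARP9 (-2.65 ± 0.17), IFI44 (-1.23 ± 0.19) and the tethering factor BST2 (-1.30 ± 0.20). The list thus did not move as a block.

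Secreted inflammatory genes leaned the same way. Of 23 cytokines and chemokines tested, 13 were higher in SW1736 and 1 lower, each at least 2-fold, with a median of 1.26, or 0.46 with no filter. IL6 read 11.03, 10.91 and 10.92 in SW1736 and 4.83, 4.78 and 4.81, undetected, in SKMEL28, at least 52.3-fold higher (adjusted p 5.62e-19). CCL2, a monocyte attractant, was at least 37.9-fold higher and the death ligand TNFSF10 at least 20.1-fold higher. CXCL8, a neutrophil attractant, was present in both lines at 11.25, 10.73 and 10.48 in SW1736 and 9.53, 9.24 and 9.27 in SKMEL28 (1.47 ± 0.25, adjusted p 2.64e-05), and a second CXCL8 probe gave 0.99 and did not pass. CCL20 was the member lower in SW1736, at least 7.75-fold. Of 13 complement genes 7 were higher and 1 lower, and C3, the central complement protein, was at least 11.5-fold higher.

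Cancer-testis antigens, germline genes that tumours can reactivate, were found in the melanoma line. Of 22 tested, 10 were lower in SW1736, 9 of them at least 2-fold, and none higher (1 at an unadjusted p under 0.05). The median was -0.37, or -0.12 with no filter and -2.97 with the filter on the 6 untreated arrays. PRAME read 4.60, 4.66 and 4.58 in SW1736, undetected, and 11.22, 11.23 and 11.42 in SKMEL28, at least 61.6-fold lower (adjusted p 3.95e-21). MAGEC1 was at least 19.9-fold lower and MAGEA4 at least 14.2-fold lower. MAGEA genes are close copies and their probes may not tell them apart.

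HOX genes, which set position along the body axis, were also lower in SW1736. Of 29 with a probe, 21 passed the filter and were tested. Of these, 15 were lower, 11 of them at least 2-fold, and none higher, also at an unadjusted p under 0.05. HOXB1, HOXB9, HOXC5, HOXC10, HOXC11, HOXC12, HOXD9 and HOXD12 did not pass the filter and were detected on no untreated array of either line. The median was -1.47, or -0.85 with bounds and -0.63 with the authors' values. The 15 lay in the B, C and D clusters, and of the A cluster only HOXA2 was tested. HOXB7 read 4.49, 4.53 and 4.69 in SW1736, undetected, and 10.11, 9.92 and 10.06 in SKMEL28, at least 25.8-fold lower (adjusted p 3.81e-20). HOXB2 was at least 13.7-fold lower, and HOXC6 differed by -4.26 ± 0.18 with detection on 2 of 3 SW1736 arrays. Members of all 3 clusters were therefore detected in SKMEL28, and 9 of the 15 were detected on no SW1736 array by the probe used and on 3 of 3 SKMEL28 arrays. Counted over every probe of a gene, 4.23% of all genes tested were called with this pattern. These 9 passed the filter through the SKMEL28 arrays, so their count adds no support for the direction.

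Enzymes that build gangliosides, the sialic acid lipids abundant on melanocytes, differed in both directions. Of 17 tested, 6 were higher in SW1736 and 9 lower. ST3GAL5, which makes GM3, the first ganglioside of the series, read 5.64, 6.46 and 6.07 in SW1736 and 10.49, 10.53 and 10.35 in SKMEL28 (-4.41 ± 0.19, adjusted p 2.18e-15). ST8SIA1, which converts GM3 to the melanoma antigen GD3, was at least 23.3-fold lower, and B4GALT6, which makes the lactosylceramide precursor, at least 5.56-fold lower. Higher in SW1736 were ST6GALNAC5, a sialyltransferase (at least 4.54-fold), B4GALNT1, which makes GM2 and GD2 (at least 1.80-fold), and A4GALT, which makes a globoside instead of a ganglioside (3.45 ± 0.20).

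Metabolic genes were read next. Of 28 glycolysis and hypoxia genes tested, 16 were lower in SW1736 and 4 higher, with a median of -0.50. HK2, the inducible hexokinase, read 7.45, 7.80 and 7.77 in SW1736 and 11.38, 11.55 and 11.64 in SKMEL28 (-3.85 ± 0.18, adjusted p 6.54e-15), and the lactate dehydrogenase chain LDHB differed by -2.46 ± 0.15. VEGFA, an angiogenic factor induced by hypoxia, went the other way (2.55 ± 0.35). Of 33 oxidative phosphorylation subunits 5 were higher and 11 lower, 2 of these at least 2-fold. Over all genes tested, 25.5% were higher and 24.7% lower. Of 42 ribosomal protein genes, 6 were higher and 9 lower with a median of -0.01, below the share of all genes called, and RPL13 (1.45 ± 0.15) led the differences although another RPL13 probe gave 0.19.

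Among 32 DNA replication genes, 18 were higher and 1 was lower in the thyroid line, with a median of 0.64. CDT1, which licenses replication origins, read 9.73, 9.58 and 9.44 in SW1736 and 6.87, 6.99 and 6.55 in SKMEL28 (2.78 ± 0.22, adjusted p 1.11e-10), and GINS2, a helicase subunit, differed by 1.90 ± 0.15. Among 19 G1 cyclins, CDKs and inhibitors, 10 were higher and 1 lower. The lower one was CDK2, at 10.49, 10.20 and 10.30 in SW1736 against 12.32, 12.28 and 12.21 in SKMEL28 (-1.94 ± 0.15, adjusted p 9.85e-11), while CDK4 was higher (1.10 ± 0.17) and so was the inhibitor CDKN1A (1.93 ± 0.18). No growth rate was measured.

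Targets of YAP and TEAD, the effectors of the Hippo pathway, were higher in the thyroid line in 18 of 24 and lower in 2 (14 and 2 at least 2-fold), with a median of 1.25, or 0.97 with bounds and 0.76 with the authors' values. CCN1, a matricellular target, read 9.89, 10.23 and 9.74 in SW1736 and 5.35, 4.79 and 4.95 in SKMEL28 (4.92 ± 0.19, adjusted p 1.84e-16), with detection on 1 of 3 SKMEL28 arrays. FJX1 was at least 48.7-fold higher and ANKRD1 at least 9.03-fold higher, whereas CCN2, often read beside CCN1, differed by 0.74 ± 0.14. YAP1 itself was higher by 0.63 ± 0.19 (adjusted p 0.00891), and WWTR1, which encodes its relative TAZ, was lower at 5.70, 7.23 and 7.18 in SW1736 against 8.86, 8.72 and 9.11 in SKMEL28 (-2.19 ± 0.34, adjusted p 7.26e-06).

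Beyond the lists, the largest differences among genes detected on every array of both lines were read by rule. EFEMP1, a fibulin of the extracellular matrix, led those higher in SW1736 at 13.64, 13.64 and 13.52, against 5.56, 5.65 and 5.24 in SKMEL28 (8.11 ± 0.14, adjusted p 1.85e-22). It was followed by FSCN1, the actin-bundling protein fascin (7.09 ± 0.19), the metallothionein MT1E (6.94 ± 0.19), which has near-identical relatives, and midkine, MDK (6.09 ± 0.20). QPCT, which cyclises glutamine at protein ends, led those lower in SW1736 at 7.22, 7.19 and 7.19, against 13.10, 12.84 and 12.95 in SKMEL28 (-5.77 ± 0.13, adjusted p 1.09e-20). UCN2, a urocortin peptide, followed (-5.62 ± 0.22), then the mitochondrial protein CHCHD10 (-5.38 ± 0.20), the neuropeptide precursor VGF (-4.84 ± 0.16) and MIA, a protein secreted by melanoma cells (-4.80 ± 0.23). Among genes with a bound, the apolipoprotein APOD was at least 75.3-fold lower, the apoptosis inhibitor BIRC7 at least 73.3-fold lower and the inflammasome adaptor PYCARD at least 71.4-fold lower in SW1736.

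The line difference was then read on the arrays of the later times, which shared the normalisation, filter, probe choice and spread estimate with the untreated arrays. For a gene undetected in 1 line, the values below are differences of normalised signals and not folds. At 1 h on vemurafenib 6890 genes differed between the lines (50.3%; 25.8% up and 24.5% down in SW1736 relative to SKMEL28), at 6 h 7171 (52.3%; 27.3% and 25.0%) and at 48 h 7348 (53.6%; 27.6% and 26.1%). Of the 1836 genes at least 2-fold higher in untreated SW1736, 97.8%, 95.0% and 89.7% were called higher at 1, 6 and 48 h. Of the 1663 lower genes, 97.4%, 94.6% and 85.5% were called lower. Calls in the opposite direction numbered 0 at 1 h (1 gene at an unadjusted p under 0.05), and 6 and 14 for the higher genes, and 4 and 29 for the lower genes, at 6 and 48 h. Drug and time in culture cannot be told apart at these times.

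Lineage genes kept their direction throughout. PAX8 differed by 5.77, 5.19, 5.45 and 5.50 at 0, 1, 6 and 48 h, and the change of its difference to 48 h did not pass (-0.26 ± 0.27, adjusted p 0.546). TYRP1 differed by -4.96, -4.98, -5.94 and -8.59 over the same times, so that the lines were farther apart at 48 h by -3.63 ± 0.19 (adjusted p 3.83e-12), and the pigment list's median was -4.10 at 0 h and -5.69 at 48 h. MC1R moved the other way, with -3.26 at 0 h and -1.39 at 48 h (change 1.87 ± 0.28, adjusted p 3.02e-05). Feedback genes of ERK differed among themselves at 48 h. SPRY4 differed by -2.95 at 0 h and by 0.16 at 48 h (change 3.11 ± 0.31, adjusted p 6.78e-08), and SPRY1 did not pass at 48 h either (0.11, adjusted p 0.66). SPRED2 (-0.86) and DUSP4 (-0.97) were still lower at 48 h, and DUSP6 was higher (1.51). The median of the ERK output list was -0.63, -0.45, 0.11 and 0.14 at the 4 times. ERBB3 differed by -1.56, -1.59, -0.50 and -1.45 (change to 48 h 0.10 ± 0.26, adjusted p 0.837).

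**Figure D4:**
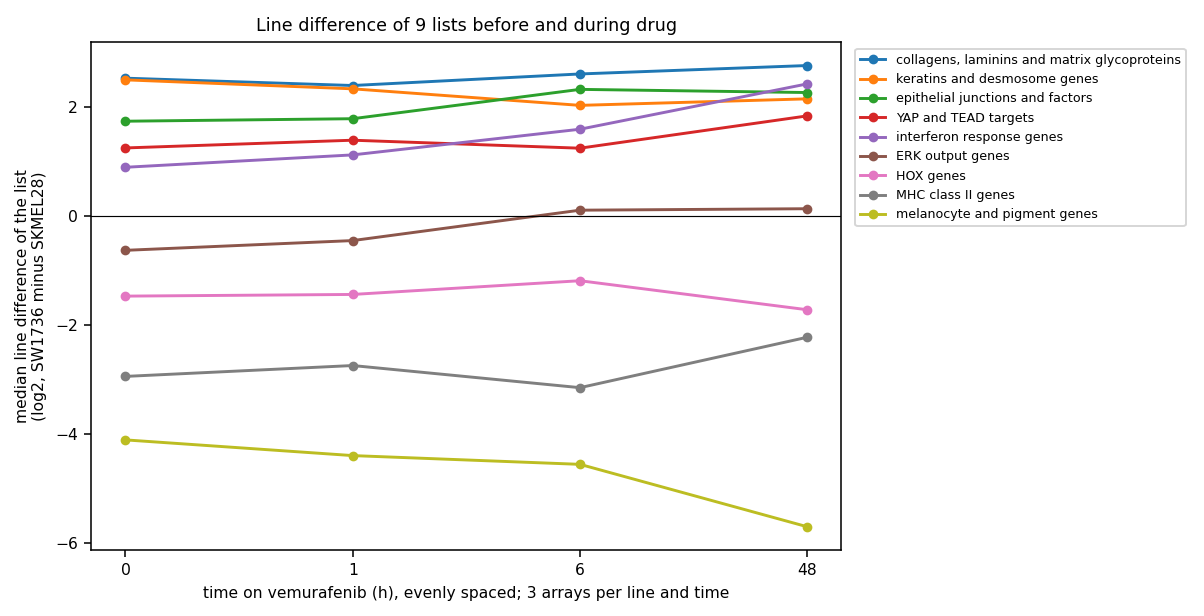
Median line difference (log2, SW1736 minus SKMEL28) of 9 gene lists on the arrays of 0, 1, 6 and 48 h of vemurafenib, drawn at even spacing, with 3 arrays per line and time. The pigment list stays lowest and lies at -5.69 at 48 h, matrix, keratin and junction lists stay above 1.5, and the ERK output list passes 0 between 1 and 6 h.

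Called genes were not spread evenly over the chromosomes. On chromosome 10, 29.3% of 546 tested genes were at least 2-fold higher in SW1736 and 6.78% lower, with a median of 0.51 over all its genes, against 13.4% and 12.1% for all genes tested. Chromosomes 20 (26.7% higher, 6.48% lower, median 0.36), 9 (22.3% and 5.32%, median 0.37) and 7 (20.5% and 7.44%, median 0.20) leaned the same way. Chromosome 2 leaned the opposite way, with 8% higher and 18.6% lower and a median of -0.32, as did chromosomes 3 (7.14% and 18.6%), 15 (7.81% and 18.8%) and 1 (9.05% and 17.0%). The chromosome medians hardly moved at later times: chromosome 10 stood at 0.45, 0.54 and 0.52 and chromosome 2 at -0.33, -0.34 and -0.32 at 1, 6 and 48 h. DNA copy number was not measured, and its part in this pattern was not tested.

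**Figure D5:**
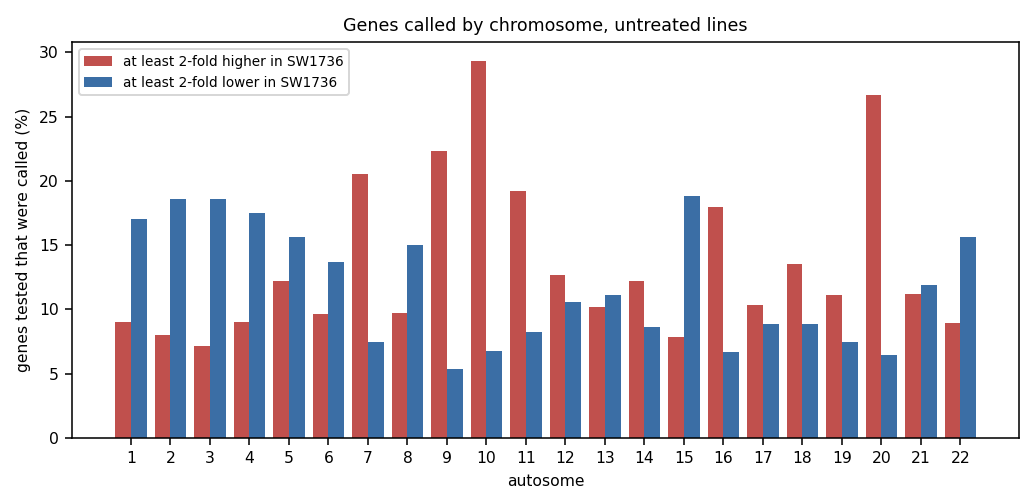
Share of the tested genes of each autosome called at least 2-fold higher (red) or lower (blue) in untreated SW1736 than in untreated SKMEL28. Red bars exceed blue ones most on chromosomes 10, 20 and 9, and blue bars exceed red ones most on chromosomes 3, 15 and 2.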

How the data were processed

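Total RNA was labelled with biotin and hybridised to Illumina bead arrays, per the labels. Each array has a column of raw signal intensity over 47231 probes in the deposited table and, per the file headers, a column of detection p-values; whether background had been subtracted is not given in the sources used here. A second deposited table holds processed values of unstated scale, which by their distributions read as log2 values that the authors quantile normalised and did not centre (column median 6.90). Partek is named in the submitters' processing notes.

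From the raw intensities, background was corrected by limma's normexp model, which took its background from the detection p-values, and 16 was added to each signal, which shrinks differences of dim genes, and arrays were quantile normalised on the log2 scale. Probes detected at p under 0.05 on at least 3 of 24 arrays were kept (26673). Of all probes, 30113 had 1 gene symbol in the platform annotation (30081 matched to a current RefSeq symbol), 8 had several and 17110 none. Where several kept probes shared a symbol, the brightest on average stood for the gene. A mean for each of 8 groups was fitted over 24 arrays (residual degrees of freedom 16, prior 6.34). The lines were compared at each of 4 times, with Benjamini-Hochberg adjustment within a time and a threshold of 0.05. A bound sets the measured line's mean against the mean of, per array of the other line, the lowest detected signal or the gene's own signal, whichever is higher. The fit was tested on simulated data. Between same-numbered untreated arrays of the lines, deviations from the group means correlated at 0.01, -0.01 and 0.01, so no shared shift was seen. These values cannot show whether same-numbered arrays were handled together, and the fit did not pair them.

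The genes and the 38 lists were chosen with earlier results of these data known, and no set test was run. Genes were named by rule: up to 12 each way with the largest differences among genes detected on all untreated arrays, up to 12 each way by bound, up to 6 called members of each list, and markers of lineage, ERBB receptors and ligands, DUSP6, SPRY2, SPRY4, CCND1, EGR1, MYC, BRAF, CTBP1 and CTBP2 whether or not called. The text gives only some of the genes named by this rule, and BRAF and several ERBB ligands are not given. Other genes given as examples of a list were chosen after their values were seen. Sex-linked marker genes were not named. Alternatives left out the background correction, scaled by medians, took the authors' values, or used other filters, other probe rules, adjusted p under 0.01, the 6 untreated arrays alone, a trended robust prior, array weights, a replicate block and leaving out each array. Tests ran in limma 3.58.1 under R 4.3.3, with statmod 1.5.0 and the data.table package 1.17.8; figures used matplotlib 3.10.9 under Python 3.11.15.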

Additional observations from a re-analysis of the deposited data

Results flagged for a closer look

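Among genes detected on every untreated array of both lines, 22 turned the direction of the line difference between 0 h and 48 h of vemurafenib. Each differed at least 2-fold and passed limma's adjusted threshold at both times. They were chosen after their values were seen. Each change of the line difference (48 h minus 0 h, SW1736 minus SKMEL28, log2) also passed limma's test of that change. That followed from how the genes were picked, so it adds no support. UCN2, a urocortin peptide, changed by 8.41 ± 0.31 (adjusted p 2.31e-14): its line difference was -5.62 at 0 h and 2.79 at 48 h. The matrix and adhesion genes TNC and ITGB3 changed by 4.79 and 4.66, and LXN, a carboxypeptidase inhibitor, by 3.86. DUSP6, the ERK phosphatase, changed by 3.20, with -1.68 at 0 h and 1.51 at 48 h. AKR1C2 (3.44), CKMT1A (3.30), TMEM158 (3.18), TBC1D9 (3.00), BCL6 (2.75), EPHB1 (2.70), DDIT4 (2.56), RCAN1 (2.55) and APOC1 (2.51) changed in the same direction, lower in SW1736 at 0 h and higher at 48 h. AKR1C2 and CKMT1A have near-identical copies that a probe may also read.

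The other genes were higher in SW1736 at 0 h and lower at 48 h. JUN, an early response factor, changed by -3.18 ± 0.36 (adjusted p 5.52e-07), with 1.51 at 0 h and -1.67 at 48 h. SH3PXD2A changed by -3.38, MTURN by -2.89, TP53INP2 by -2.66, GDF11 by -2.61, BRCA1 by -2.57, KANK2 by -2.51 and MAP4K4 by -2.39. Drug and time in culture cannot be told apart in these values.

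Probes with no gene symbol, or with several, lay outside the gene comparison. Of 7777 such probes that passed the detection filter, 1643 differed between the untreated lines, 730 higher in SW1736 and 913 lower, and 846 differed at least 2-fold. Both shares were smaller than those of the genes tested, of which 50.2% were called and 25.5% at least 2-fold.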

How the results depend on the processing

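The number of genes called between the untreated lines lay between 5659 (adjusted p under 0.01) and 7051 over the alternatives, beside 6883, and the number called at least 2-fold was 2062 without background correction and 2051 with the authors' deposited values, beside 3499. Of 38 lists, 9 had a median of at least 1 in size. That number was 5 without background correction, 5 with the authors' values, 5 with no filter and 16 with the filter on the 6 untreated arrays, which test different numbers of genes per list. Leaving out 1 untreated array gave 6280 to 6626 called genes, 3495 to 3649 at least 2-fold, and 9 to 10 lists. With a replicate block the numbers were 6790, 3500 and 9. No label says that same-numbered arrays share more than a number. Medians near 0 turned sign under some alternatives for the thyroid, receptor tyrosine kinase, ERBB ligand, RAS to ERK cascade, integrin, Notch, BCL2, blood and endothelial, and ribosomal lists. Over the alternatives, list medians lay between -4.33 and -2.72 for pigment, -1.44 and -0.65 for neural crest, -3.23 and -1.33 for MHC class II, -2.97 and -0.12 for cancer-testis and -1.95 and -0.63 for HOX genes, and between 0.75 and 2.93 for keratins, 0.53 and 2.42 for junctions, 1.24 and 2.92 for matrix, 0.46 and 1.77 for cytokines and 0.76 and 1.34 for YAP targets. Of 252 called genes among 261 named by rule, 249 kept their call and direction under every alternative that tested them. The others were HLA-DRB4, at 0.095 (adjusted p 0.836) by the probe detected on most untreated arrays, POSTN and PDGFRB. CCND1 and NRG3, which did not pass, passed with 1 array left out. At 1, 6 and 48 h, median scaling called 6360, 6400 and 6714 genes and fits of the 6 arrays of each time 6851, 6633 and 7001. Signal over background limits dim genes: folds near the detection limit are understated, and only bounds can be given below it.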

Other observations

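Signalling lists that the comparison above does not describe held some of its largest single differences. Of 29 Wnt pathway genes tested, 12 were higher in SW1736 and 6 lower. This count and those of the Notch and TGF-beta lists below stand beside 25.5% higher and 24.7% lower over all genes tested. The brightest probe of DKK3, a secreted Dickkopf family protein, was detected on no SKMEL28 array and was at least 187-fold higher in SW1736. Other DKK3 probes detected on 3 of 3 SW1736 arrays and on no SKMEL28 array gave signal differences of 8.19 and 1.77. A further DKK3 probe, detected on 1 array of each line, gave 0.16. LEF1, the transcription factor at the end of the Wnt pathway, was at least 50.2-fold lower in SW1736, and the secreted inhibitor SFRP1 differed by -5.56, whereas the secreted ligand WNT5A was at least 6.84-fold higher. Of 17 Notch pathway genes, 6 were higher and 7 lower. The receptor NOTCH1 (3.28) and the ligand JAG1 (at least 8.58-fold) were higher in SW1736, and the ligand DLL3 was at least 22.4-fold lower. Of 30 TGF-beta and BMP pathway genes, 14 were higher and 8 lower. The activin antagonist FST was at least 19.9-fold higher and the BMP target ID1 differed by 3.23, whereas the decoy receptor BAMBI differed by -4.28 and GDF15, a stress-induced member of the family, was at least 52.2-fold lower.

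Of 22 p53 targets tested, GDF15 included, 4 were higher in SW1736 and 9 lower, with a median of -0.43. Over all genes tested, 25.5% were higher and 24.7% lower. CDKN1A (1.93) and PMAIP1 (2.74), a BH3-only death gene, were among the higher ones. Of 26 NRF2 targets and detoxification enzymes, 8 were higher and 13 lower, and GSTM2 (-5.58), ALDH1A1 (-4.02) and HMOX1, the inducible haem oxygenase (-3.52), were lower, whereas CYP1B1 was at least 19.1-fold higher. GSTM genes are close copies, so the GSTM2 value is uncertain. Of 19 BCL2 family genes, 5 were higher and 6 lower, near the shares of all genes called. BCL2L1, an inhibitor of apoptosis, was higher by 1.99 and BCL2 itself lower (-0.95). Of 13 S100 genes, 5 were higher and 2 lower, with S100A16 at least 54.1-fold higher and S100A1 at least 39.8-fold lower. Of 12 cadherins and protocadherins, 6 were higher and 3 lower, and CDH11, a mesenchymal cadherin, was at least 28.2-fold higher.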
